A study of Mus musculus with 42 samples.

Results

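The comparison described here sets spleens taken 72 h after an injection of CpG oligodeoxynucleotides (CpG ODN) against spleens taken 24 h after it, over all genes measured. Its members are 8 of the 42 arrays of the study, the 4 titled as CpG ODN at 72 h and the 4 titled as CpG ODN at 24 h. All mice were female BALB/c, an inbred strain, and their age is not given in the sources used here. Both groups had received 400 µg in all of CpG ODN 1555 and 1466 in equal molar amounts by the intraperitoneal route, and the treatment text of the labels also writes the first as 155. The control ODN arrays of the study are of 3 h, so no control of the same time is used here, and the time after injection is the one labelled difference between the groups. The 6 arrays of untreated BALB/c spleens serve below as a level to set both times against. The submitters describe 4 independent biological replicates per time point, and do not say how many mice gave an array. Each array held Cy5-labelled spleen cDNA beside Cy3-labelled cDNA of a common mouse reference, a mix of RNA from several tissues, and every value is a log2 ratio of spleen over reference.

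CpG ODN are short synthetic DNAs whose unmethylated CG steps are bound by TLR9, a receptor in the endosomes of B cells, dendritic cells and macrophages. TLR9 signals through MyD88 to NF-kB and to interferon regulatory factors, which give inflammatory cytokines and type I interferon, and interferon in turn drives a large set of antiviral genes for some hours to days. The spleen of an adult mouse is also a site of red cell production, and it takes up more of this work when the marrow is under inflammatory stress. In dividing cells, genes of DNA replication are raised by E2F factors at the start of S phase. Genes of mitosis are raised somewhat later by MuvB complexes with B-MYB and FOXM1, which are recruited through CHR elements of their promoters. Many mitotic promoters also hold CCAAT boxes.

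The 8 arrays lacked a value for 205 to 1094 of 30601 features. Correlations between arrays ran from 0.774 to 0.889 among the 24 h arrays, from 0.841 to 0.970 among the 72 h arrays and from 0.769 to 0.893 between the groups. The 4 arrays of 72 h lie in one run of database numbers, with the control ODN, 7-day and 14-day arrays. Arrays 2, 3 and 4 of 24 h lie in another, with the 9 h arrays and 2 of the 3 h arrays, and 24 h array 1 lies apart. No run holds both groups, so run and time cannot be told apart within a run, and levels in the groups that share a run are given beside the main results. B cell genes were high on every array, as a spleen should give (Cd79a at 6.20, 5.64, 5.48 and 4.83 at 24 h and 6.19, 6.15, 5.22 and 4.91 at 72 h). The 24 pancreas acinar genes measured, among them the trypsinogen, elastase and lipase genes, varied widely. Their mean was 2.51, 2.97, 4.92 and 0.48 on the 24 h arrays, 0.42, 1.67, 3.83 and 3.94 on the 72 h arrays and 0.58 to 5.88 on the untreated arrays, and 0 of 24 were called (2 lower at an unadjusted p under 0.05, limma). With this mean as a covariate the counts of called members of the 4 lists that lead this account were the same as without it.

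Between 24 h and 72 h the spleens gained red cell precursor genes and mitotic genes, and some interferon-stimulated genes fell. Of 15081 genes tested, 831 were called (5.51%). Of these 545 were higher at 72 h (3.61%) and 286 lower (1.90%), at an adjusted p under 0.05 with limma and Benjamini-Hochberg adjustment over all genes. By at least 1 on the log2 scale 243 of them rose and 49 fell, and the median difference over all genes was -0.03. At an unadjusted p under 0.05 with limma, a measure given for some lists, 2720 of the 15081 genes passed in either direction. The 3 erythroid lists together hold 65 tested genes, and 37 rose and 0 fell, with a median difference of 0.98. Of 60 mitotic genes 32 rose, and of 49 interferon-stimulated genes 11 fell and 1 rose. Since each array measures whole spleen, more cells of a type and more RNA per cell cannot be told apart. Leaving out 24 h array 3 reduced the calls from 831 to 470, and leaving out 72 h array 2 reduced them to 467. With runs of database numbers as a random block 688 genes were called, all of them among the 831. As no run holds both groups, this fit cannot separate run from time.

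**Figure D1:**
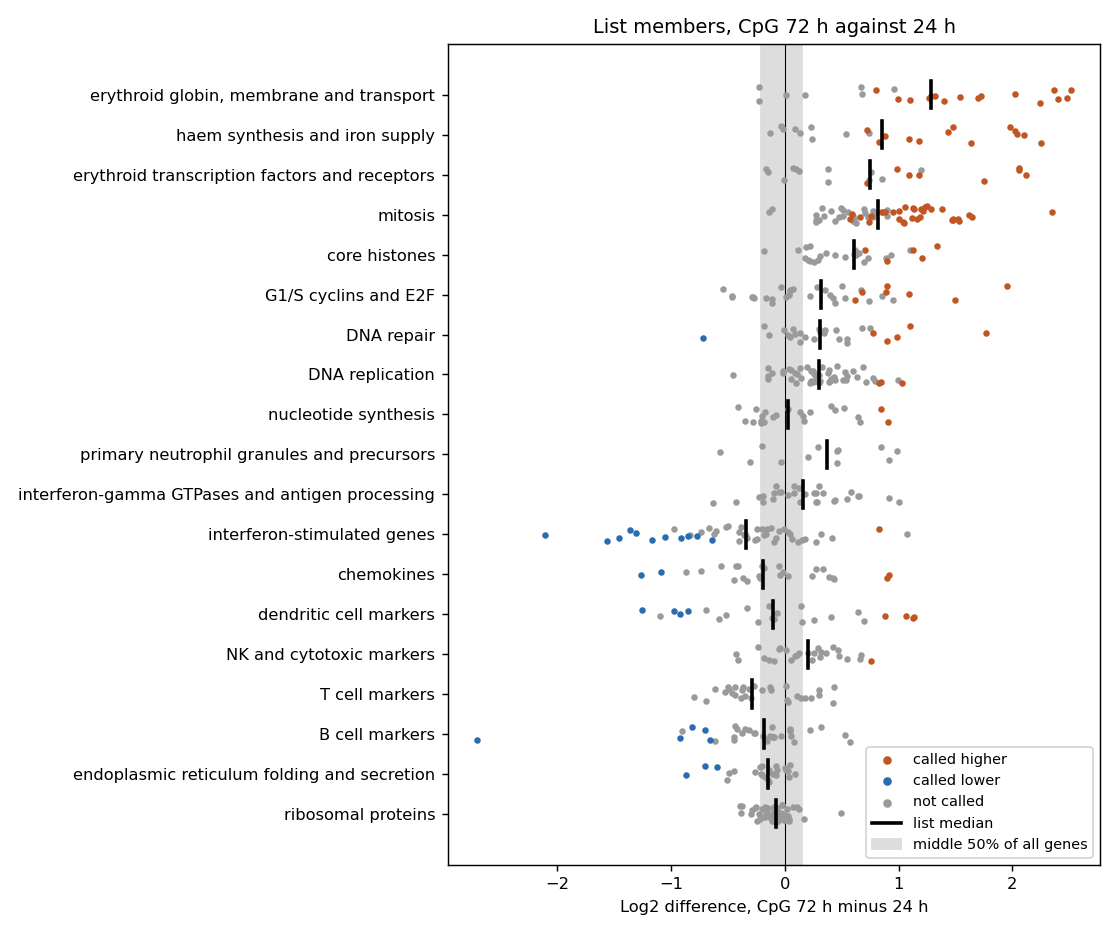
Log2 difference between CpG 72 h and 24 h (horizontal axis) for the members of 19 of the gene lists, 1 point per gene, with the list median as a black bar and the middle 50% of all genes as a grey band. The erythroid and mitotic lists lie to the right, with medians of 1.29, 0.86, 0.75 and 0.82, the interferon-stimulated genes lie to the left at -0.34, and the median of the ribosomal proteins lies at -0.08.

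Genes of the red cell membrane and of transport across it had the highest median difference of the 40 lists. Of 23 tested members of the list of globin, membrane and transport genes, 16 rose and 0 fell, with a median difference of 1.29. Kel, the Kell blood group protein, stood at 1.33, 1.41, 1.33 and 1.79 on the 4 arrays of 24 h and at 4.02, 4.14, 4.93 and 2.83 on those of 72 h. The groups did not overlap, as held for 7.58% of the 14242 genes measured on all 8 arrays, and the difference was 2.51 ± 0.39 (SE), 5.71-fold (adjusted p = 7.53e-05). Untreated spleens ranged from 1.92 to 3.47, so the 24 h arrays lay below them all and 3 of the 72 h arrays above them all. Rhd, the Rh blood group protein, was at 3.14, 4.66, 3.80 and 3.73 at 24 h and 5.82, 6.36, 7.18 and 4.93 at 72 h, a difference of 2.24 ± 0.43 (adjusted p = 0.000831).

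The promoters of Kel and Rhd each hold AGATAA, which factors of the GATA family recognise, within the 250 bases before the start, and the stretches around it are shown because GATA1 is the chief activator of this gene class. They are given 5′ to 3′ on the strand of the gene from RefSeq (GRCm38.p6), at chr6:41704361-41704396 on the minus strand and chr4:134864478-134864513 on the plus strand, with the motif in capitals.
Kel: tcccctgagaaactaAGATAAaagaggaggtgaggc
Rhd: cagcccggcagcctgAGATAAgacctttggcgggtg
AGATAA on either strand was found in 3 of 13 promoters of the called members of this list (23.1%), against 7.86% of the 11979 tested genes with a promoter in the table and 8.37% of all genes that rose. It was found in 1 of 11 promoters of the haem genes that rose (9.09%) and in 1 of 6 of the erythroid factors that rose (16.7%).

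Tfrc, the transferrin receptor that brings iron into red cell precursors, was at 0.86, 2.07, 0.52 and 0.35 at 24 h and 3.20, 3.65, 3.78 and 2.61 at 72 h, against 1.84 to 2.62 in untreated spleens. It differed by 2.36 ± 0.37 (5.14-fold, adjusted p = 7.94e-05), and 24 h array 2 was the highest of its group. Trim10, a ring finger protein of maturing red cells, rose by 2.48 ± 0.44, and Mgst3, a microsomal glutathione transferase, by 2.40 ± 0.35. The other members that rose, named here after their values were seen, include the water channel Aqp1 at 2.02, the skeleton proteins Tmod1, Ank1, Add2 and Dmtn at 1.72, 1.70, 1.10 and 1.00, and the anion exchanger Slc4a1 at 1.29. Adult globins were not called. Hbb-b1, the adult beta globin, was at 5.99, 6.68, 7.12 and 6.99 at 24 h and 6.63, 6.63, 5.65 and 6.96 at 72 h, a difference of -0.23 ± 0.43 (adjusted p = 0.844), and Hba-a1 differed by 0.01 ± 0.33. Globin RNA is also carried by circulating red cells that the spleen holds, and the part of these cells in the globin values was not tested.

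Genes of haem synthesis and iron supply rose too. Of 22 tested genes 13 rose and 0 fell, with a median difference of 0.86. The called members cover most steps of the pathway: Alad rose by 1.48 ± 0.30, Uros by 2.02 ± 0.31, Urod by 2.04 ± 0.29, Cpox by 1.09 ± 0.21, Ppox by 1.18 ± 0.20 and Fech, which inserts the iron, by 1.98 ± 0.34. Of these, Alad, Cpox, Ppox and Fech were named after their values were seen. Urod, which takes carboxyl groups off uroporphyrinogen, was at 0.53, 1.60, 0.29 and 0.75 at 24 h and 2.59, 3.01, 3.39 and 2.33 at 72 h, without overlap (adjusted p = 4.17e-05). Slc25a37, the mitochondrial iron importer mitoferrin 1, was at 1.07, 2.44, 0.19 and 1.03 and 3.55, 3.49, 3.44 and 2.66, a difference of 2.10 ± 0.31 (adjusted p = 5.41e-05). Untreated spleens had 2.60 to 3.23 of it, so the 24 h arrays lay below that range and 3 of the 72 h arrays above it. Abcb10, a mitochondrial transporter bound to mitoferrin 1, rose by 2.25 ± 0.34. The first enzyme of the pathway did not follow: Alas2, the erythroid aminolevulinate synthase, was at 5.13, 4.95, 4.26 and 4.02 at 24 h and 4.68, 5.34, 4.34 and 3.88 at 72 h, a difference of -0.03 ± 0.40 (adjusted p = 0.981). Ferritin chains and the iron exporter were not called either, with Fth1 at -0.13, Ftl1 at -0.02 and Slc40a1 at 0.09.

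Transcription factors of the red cell lineage were higher too, 8 of 20 list members with 0 lower and a median difference of 0.75. Klf1, the factor that completes red cell maturation, was at 3.89, 5.00, 3.68 and 4.11 at 24 h and 6.69, 6.85, 6.76 and 4.86 at 72 h, and 72 h array 4 lay below the highest 24 h array. It rose by 2.12 ± 0.42 (adjusted p = 0.0012), and by 2.60 without that array. Tal1 rose by 2.06 ± 0.36, Sox6 by 2.06 ± 0.33, Nfe2 by 1.75 ± 0.32 and Gata1 by 1.18 ± 0.22. Gata1 was at 1.64, 1.79, 2.11 and 1.85 at 24 h and 3.08, 3.27, 3.46 and 2.28 at 72 h, against 1.89 to 2.38 in untreated spleens. Lmo2, a further called member named after its value was seen, rose by 0.98 ± 0.17 (adjusted p = 0.00024). Kit and Myb, which also act in earlier progenitors, were not called. Kit, the stem cell factor receptor, differed by 0.38 ± 0.25 and Myb by 0.38 ± 0.18 (adjusted p = 0.456 and 0.24). The erythropoietin receptor Epor differed by 0.74 ± 0.33 (adjusted p = 0.215).

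Several of the genes with the highest differences lie outside these lists. Fn3k, the kinase that frees proteins of bound fructose, was at 0.34, 1.19, 0.26 and 0.46 at 24 h and 4.01, 3.97, 3.93 and 2.07 at 72 h. It rose by 2.93 ± 0.37 (7.64-fold, adjusted p = 4.94e-06), and by 3.41 without 72 h array 4, the lowest of its group. Ubac1, a subunit of a ubiquitin ligase, rose by 2.26 ± 0.34, Chac2, a glutathione-degrading enzyme, by 2.22 ± 0.37, and Fhdc1, a formin-like protein, by 2.43 ± 0.37. Those 4 were below the range of untreated spleens on 3 or 4 of the 24 h arrays. Nxpe2, a member of the neurexophilin family, rose by 2.09 ± 0.46. Car2, a carbonic anhydrase of red cells that stands in the stem and progenitor list, was at 6.48, 6.86, 5.83 and 6.29 and 7.75, 8.09, 7.27 and 7.32 and rose by 1.24 ± 0.27 (adjusted p = 0.00293). It was the one called member of 19 in that list (5.26%, against 5.51% of all genes). Of megakaryocyte and platelet genes, made by the sister lineage of red cells, 0 of 17 were called (1 higher and 0 lower at an unadjusted p under 0.05, limma).

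**Figure D2:**
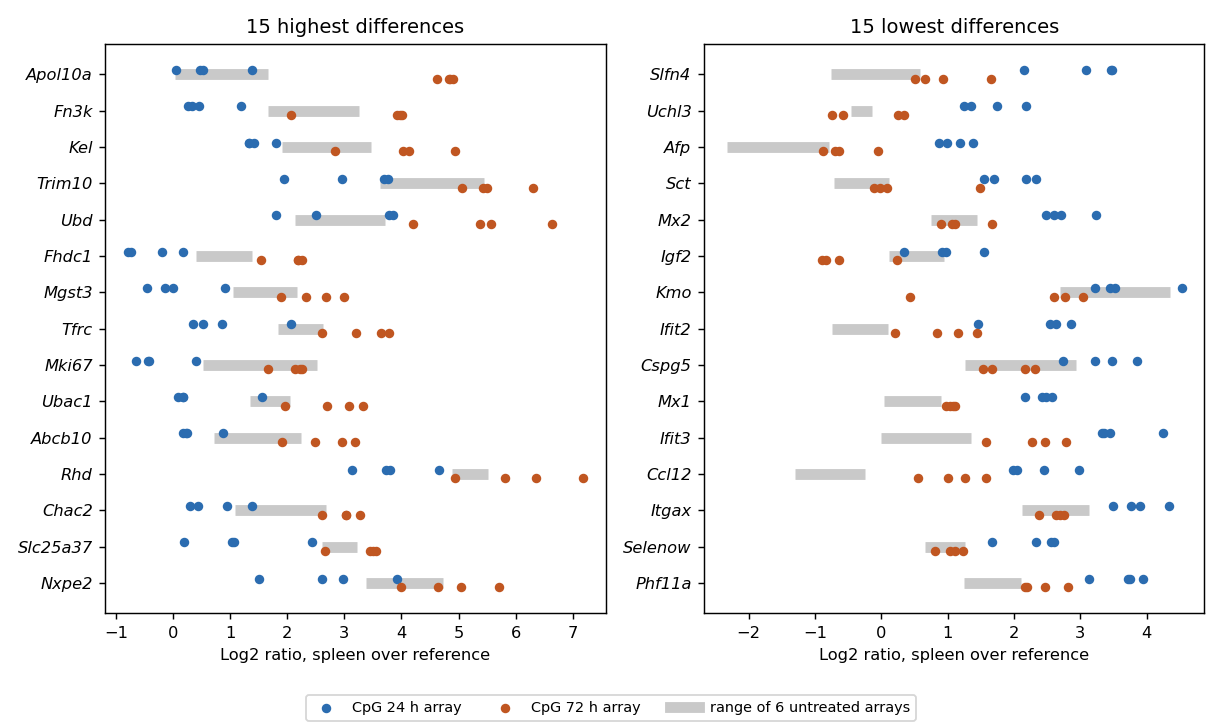
Log2 ratio of spleen over reference (horizontal axis) on each array of CpG 24 h (blue) and CpG 72 h (orange) for the 15 genes with the highest and the 15 with the lowest difference, with the range of the 6 untreated arrays as a grey bar. Most genes on the left lie below the untreated range at 24 h and at or above it at 72 h. Apol10a lies within that range at 24 h and at 4.63 to 4.90 at 72 h.

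Apol10a, an apolipoprotein L family member, had the highest difference of the named genes and a course of its own. It was at 0.53, 1.38, 0.05 and 0.47 at 24 h and at 4.85, 4.90, 4.63 and 4.83 at 72 h, against 0.03 to 1.67 in untreated spleens. The difference was 4.20 ± 0.44 (18.3-fold, adjusted p = 2.65e-07), with 2 features of the gene in one direction. At 3 h and 9 h it had been at 1.22 ± 0.61 and 1.29 ± 0.40 (SD, n = 4), and in the run of the 72 h arrays it was at 1.63 ± 0.80 after control ODN, 5.48 ± 0.24 at 7 days and 2.50 ± 1.43 at 14 days. Its upstream stretch is shown because it holds 1 match to the ISRE core, the site of interferon-activated factors, beside 1 CCAAT box on the other strand. The ISRE core was found in 7 of 442 promoters of genes that rose (1.58%), against 3.13% of the promoters of all tested genes. The stretch of Apol10a lies at chr15:77476981-77477029 on the plus strand (RefSeq, GRCm38.p6), and capitals mark both matches.
Apol10a: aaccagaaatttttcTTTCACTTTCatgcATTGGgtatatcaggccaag
Ubd, a ubiquitin-like protein induced by inflammatory cytokines, was at 3.85, 2.51, 1.81 and 3.78 at 24 h and 6.64, 5.57, 5.38 and 4.20 at 72 h, with no overlap. It rose by 2.46 ± 0.48 (adjusted p = 0.00086), and its 24 h values spanned the untreated range of 2.13 to 3.72. Gch1, the first enzyme of tetrahydrobiopterin synthesis, was at -0.01, 1.12, 0.05 and 0.10 and 2.40, 2.49, 2.64 and 1.88 and rose by 2.04 ± 0.28 (adjusted p = 3.17e-05). Untreated spleens held 1.16 to 1.94, above all 24 h arrays.

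The mitotic genes rose as a broad group. Of 60 tested members 32 rose and 0 fell, with a median difference of 0.82, and 58 of 60 means were higher at 72 h, against 45.5% of all genes. Mki67, the chromosome surface protein used to mark cycling cells, was at -0.65, -0.43, -0.44 and 0.40 on the 24 h arrays and 2.14, 2.22, 2.25 and 1.66 on the 72 h arrays. It rose by 2.34 ± 0.45 (5.08-fold, adjusted p = 0.000707), and the untreated range of 0.53 to 2.52 held all 72 h arrays and none of the 24 h arrays. Nusap1, a spindle protein, was at -0.06, 0.35, -0.32 and -0.34 and 1.45, 1.54, 2.06 and 1.17 and rose by 1.65 ± 0.33 (adjusted p = 0.00119). Ccnb2 and Ccna2, the mitotic and S/G2 cyclins, rose by 1.62 ± 0.38 and 1.53 ± 0.32. Ccnb2 was at -0.64, 0.65, -0.21 and -0.64 at 24 h and 0.86, 1.46, 2.45 and 0.88 at 72 h, and without 72 h array 3, its highest, the difference was 1.27 (adjusted p = 0.0554).

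The upstream stretches of Mki67 and Ccnb2 are shown as examples of the elements that mitotic promoters share. They are taken from RefSeq (GRCm38.p6) at chr7:135716425-135716582 and chr9:70421556-70421656, both on the minus strand, and are written 5′ to 3′ on the strand of the gene. Capitals mark the CHR core TTTGAA, the CCAAT box in either direction and the E2F motif TTGGCGC.
Mki67: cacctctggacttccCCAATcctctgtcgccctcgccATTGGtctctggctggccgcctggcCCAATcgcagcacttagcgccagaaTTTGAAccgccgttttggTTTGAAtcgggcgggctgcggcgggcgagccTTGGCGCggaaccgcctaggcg
Ccnb2: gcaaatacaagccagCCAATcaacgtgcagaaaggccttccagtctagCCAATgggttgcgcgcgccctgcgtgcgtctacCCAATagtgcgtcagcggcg
In the Mki67 stretch the CHR cores begin at positions -116 and -98 from the start of the gene and the CCAAT boxes at -188, -166 and -141. The Ccnb2 stretch has CCAAT boxes at -87, -54 and -21 and no TTTGAA. Over the list, TTTGAA on either strand was found in 37 of 52 promoters (71.2%) and CCAAT in 71.2%, against 13.3% and 38.5% of the 11979 tested genes. Among the mitotic genes that rose, 19 of 29 promoters held TTTGAA (65.5%) and 23 of 29 held CCAAT (79.3%), against 14.9% and 45.7% of all genes that rose.

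Further mitotic genes among the 32 that rose were named after their values were seen. Among kinetochore and centromere proteins, Cenpa rose by 1.05 ± 0.17, Cenpe by 1.20 ± 0.26, Nuf2 by 1.14 ± 0.32 and Spc25 by 1.18 ± 0.30. Among spindle motors and midzone proteins, Kif18b rose by 1.52 ± 0.31, Kif22 by 1.12 ± 0.23 and Prc1, which bundles the midzone, by 1.48 ± 0.27. Birc5 and Cdca8 of the chromosomal passenger complex rose by 1.23 ± 0.22 and 1.04 ± 0.29, while its kinase Aurkb differed by 0.28 ± 0.19 (adjusted p = 0.484). Sgo1, the guardian of centromere cohesion, rose by 1.48 ± 0.27, and the condensin subunits Ncapg and Smc2 by 1.21 ± 0.30 and 1.01 ± 0.25. Foxm1, an activator of the mitotic programme, rose by 0.74 ± 0.20 (adjusted p = 0.0199).

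Some central members did not pass. Cdk1, the mitotic kinase, was at -0.55, -0.45, -1.13 and -0.62 at 24 h and -0.16, 0.01, -0.10 and -0.27 at 72 h, which do not overlap, yet the difference of 0.56 ± 0.21 had an adjusted p of 0.126. Top2a, which untangles chromosomes, differed by 0.90 ± 0.31 (adjusted p = 0.083), and Cdc20 by 0.32 ± 0.18 (adjusted p = 0.345). Plk1, the polo-like kinase, was at -0.92, -0.30, -1.12 and -0.93 and -0.36, 0.07, -0.55 and -0.07 and was called at 0.59 ± 0.18 (adjusted p = 0.0479). The call of Plk1 was not kept in 6 of the 8 fits that left out 1 array (highest adjusted p = 0.198).

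**Figure D3:**
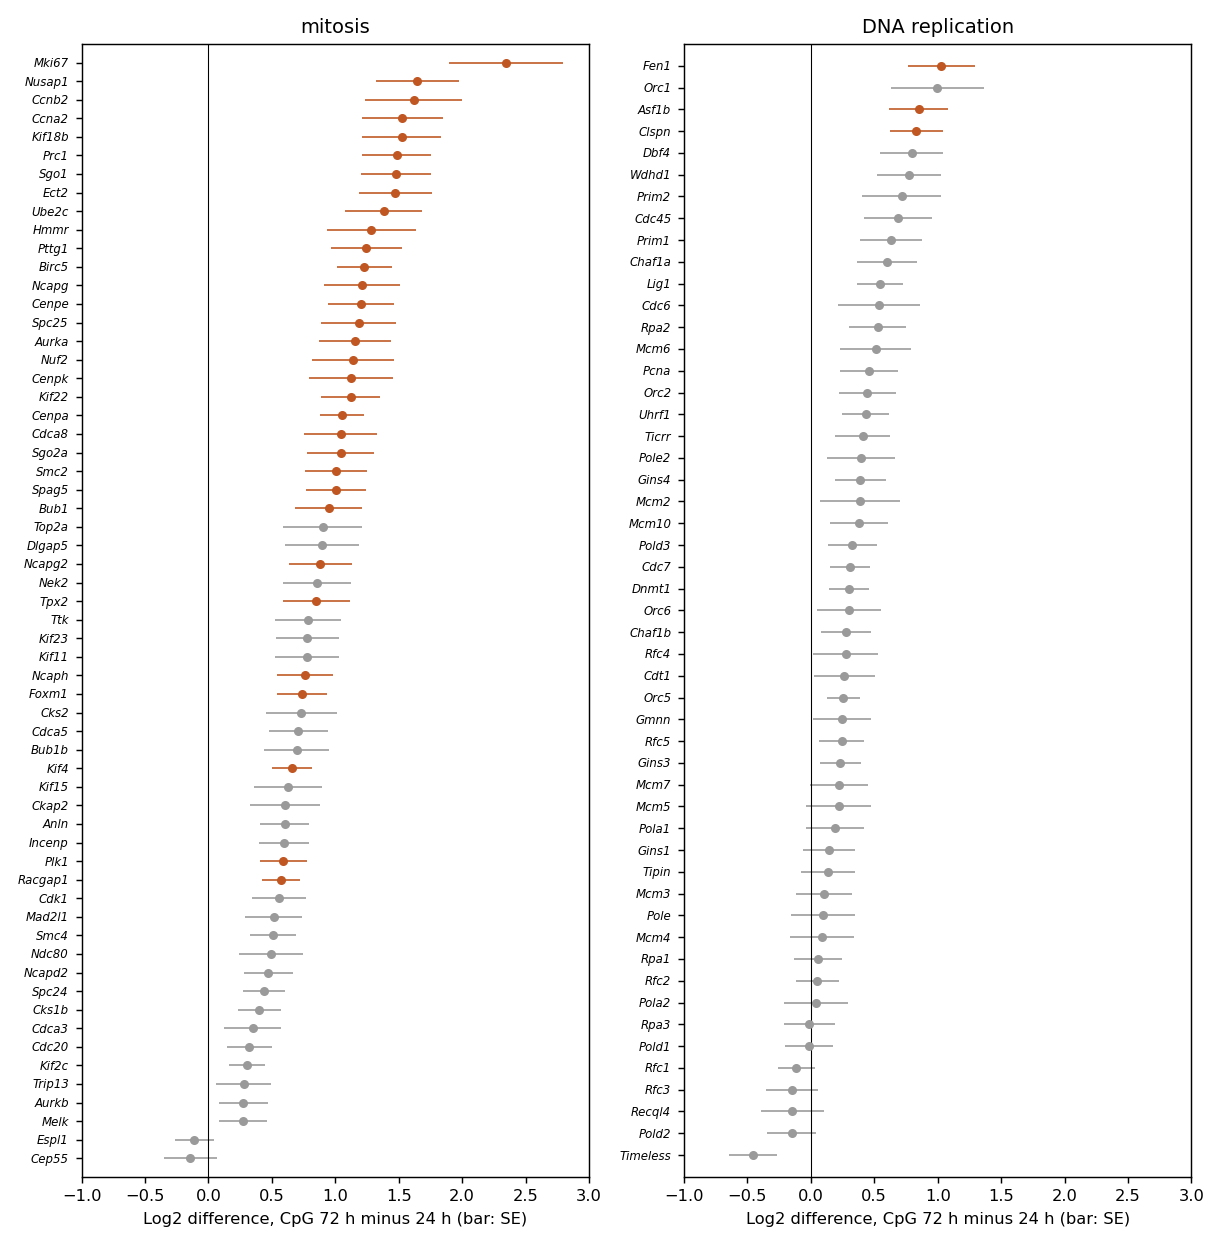
Log2 difference between CpG 72 h and 24 h (points, with the standard error of the fit as bars) for the tested genes of mitosis (left, 60) and DNA replication (right, 51), in order of the difference, with called genes in orange. The called mitotic genes run from 0.57 for Racgap1 to 2.34 for Mki67, while 3 replication genes are called.

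The working name of this comparison speaks of an onset of proliferation. Of 51 genes of DNA replication 3 rose (5.88%, against 3.61% of all genes) and 0 fell, with a median difference of 0.30 (13 higher and 1 lower at an unadjusted p under 0.05). Their means were higher at 72 h for 44 of 51, and the difference between the replication and mitotic lists was not tested. Fen1, the flap nuclease, was at 0.44, 1.00, 0.58 and 0.40 at 24 h and 1.22, 1.64, 2.53 and 1.13 at 72 h and rose by 1.03 ± 0.26 (adjusted p = 0.0134), with 0.73 without 72 h array 3 (adjusted p = 0.105). The histone chaperone Asf1b rose by 0.85 ± 0.23 and the checkpoint adaptor Clspn by 0.83 ± 0.21. Mcm5, a subunit of the replicative helicase, was at 0.24, 1.19, 0.85 and 0.48 at 24 h and 0.43, 0.88, 1.92 and 0.41 at 72 h, a difference of 0.22 ± 0.25 (adjusted p = 0.719), and Pcna, the sliding clamp, differed by 0.46 ± 0.23 (adjusted p = 0.289). Of 23 nucleotide synthesis genes 2 rose (8.70%) and 0 fell, with a median of 0.03. Tyms, thymidylate synthase, rose by 0.84 ± 0.20, and Rrm1, a ribonucleotide reductase subunit, was called at 0.91 ± 0.27 with 72 h array 3 far above the others: it was at 1.16, 1.20, 2.66 and 1.18 on the 72 h arrays, and the difference without array 3 was 0.54 (adjusted p = 0.262). Rrm2 and Tk1 differed by 0.41 ± 0.18 and 0.66 ± 0.28 and did not pass. The calls of Asf1b and Rrm1 were not kept in 5 and 4 of the 8 fits that left out 1 array, with a highest adjusted p of 0.0788 and 0.262.

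Regulators of entry into S phase, histones and repair genes also held members that rose. Of 34 genes of G1/S cyclins and E2F factors 7 rose (20.6%, against 3.61% of all genes) and 0 fell. Cdc25b, a phosphatase that activates cyclin-dependent kinases, was at -0.66, 0.11, -1.09 and -0.84 at 24 h and 1.36, 1.42, 1.52 and 1.02 at 72 h, against 0.59 to 0.97 untreated, and rose by 1.95 ± 0.28 (adjusted p = 4.17e-05). Ccne2, a cyclin of S phase entry, rose by 1.50 ± 0.38, with 1.32 and an adjusted p of 0.0624 without 72 h array 3. E2f2, an E2F factor that red cell precursors also use, rose by 1.09 ± 0.24, and the kinase inhibitor Cdkn2c by 0.89 ± 0.20. The 3 features of Cdkn2c did not all differ in the same direction. E2f1, Myc and Ccnd1 differed by 0.05 ± 0.24, -0.28 ± 0.14 and -0.27 ± 0.15 (adjusted p = 0.957, 0.267 and 0.339). Of 27 core histone and histone supply genes 5 rose (18.5%) and 0 fell, with a median of 0.61 and 26 of 27 means higher at 72 h. H2ac15 rose by 1.34 ± 0.30, H2ac4 by 1.21 ± 0.36, H4c8 by 1.13 ± 0.30 and Slbp, which binds histone RNA, by 0.89 ± 0.28, and histone genes are close copies whose features may share signal. Of 27 repair genes 5 rose (18.5%) and 1 fell (3.70%, against 1.90% of all genes), and 23 of 27 means were higher at 72 h. Neil3, a glycosylase of cycling cells, was at -1.60, -0.77, -1.55 and -1.55 at 24 h and 0.32, 0.48, 0.76 and 0.03 at 72 h and rose by 1.76 ± 0.34 (adjusted p = 0.000905), Fancd2, Brca1 and Blm of the repair of broken and crosslinked DNA rose by 0.98 ± 0.26, 1.10 ± 0.30 and 0.90 ± 0.23, and Atm, the damage kinase, which was named after its value was seen as the member that fell, differed by -0.72 ± 0.17. Leaving out 1 array at a time, H2ac4, H4c8 and Slbp lost their calls in 6, 2 and 6 of the 8 fits, with a highest adjusted p of 0.117, 0.0769 and 0.259. With 1 array left out at a time, the calls of Fancd2, Brca1 and Blm were not kept in 4, 3 and 3 of the 8 fits, with a highest adjusted p of 0.0965, 0.101 and 0.0629.

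Both times were also set against untreated spleens. At 24 h, 436 of 15185 genes were lower than in untreated spleens (2.87%) and 1220 higher (8.03%), and at 72 h 911 of 15155 were lower (6.01%) and 1356 higher (8.95%). Of the 23 red cell membrane and transport genes, 10 were lower and 0 higher at 24 h, and 7 were higher and 0 lower at 72 h. Of the 22 haem genes 9 were lower at 24 h and 5 higher at 72 h. Of the 60 mitotic genes 2 were lower and 2 higher at 24 h, and 45 were higher and 0 lower at 72 h. Replication genes were higher than untreated for 4 of 51 at 24 h and 27 of 51 at 72 h, with 0 and 1 lower. These comparisons share the untreated arrays with each other and the CpG arrays with the main one. Over all 65 tested genes of the erythroid lists, called or not, 54 had a 24 h mean below the untreated mean (83.1%) and 54 a 72 h mean above it (83.1%), with median differences of -0.50 and 0.41. Over all 60 mitotic genes 39 had a 24 h mean below untreated (65%) and 59 a 72 h mean above it (98.3%), with median differences of -0.12 and 0.84. Of all genes tested, 48.2% were below untreated at 24 h and 52.7% above it at 72 h.

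The mean of the mitotic list was -0.68, -0.31, -0.67 and -0.70 on the 24 h arrays and 0.16, 0.34, 0.57 and 0.07 on the 72 h arrays, against -0.73 to -0.20 untreated. The 72 h arrays lay above all others of these groups. In the run of the 72 h arrays this mean was -0.47 after control ODN, 0.68 at 7 days and -0.53 at 14 days. In that of most 24 h arrays it was -0.76 at 9 h. The mean of the red cell membrane and transport list was 1.65, 2.20, 1.49 and 1.86 at 24 h and 3.21, 3.37, 3.31 and 2.67 at 72 h, against 2.32 to 2.91 untreated. It was 2.86 after control ODN, 3.23 at 7 days and 2.72 at 14 days in the run of the 72 h arrays, and 2.47 at 9 h. The control ODN arrays ranged from 2.22 to 3.27, so within their run the 72 h arrays overlapped them, while all 24 h arrays lay below both. The haem list mean was 1.09, 1.63, 1.01 and 1.13 at 24 h, 2.17, 2.31, 2.22 and 1.86 at 72 h and 1.66 to 2.27 after control ODN. The part of the run in these differences was not tested, and the random block cannot test it because no run holds both groups.

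**Figure D4:**
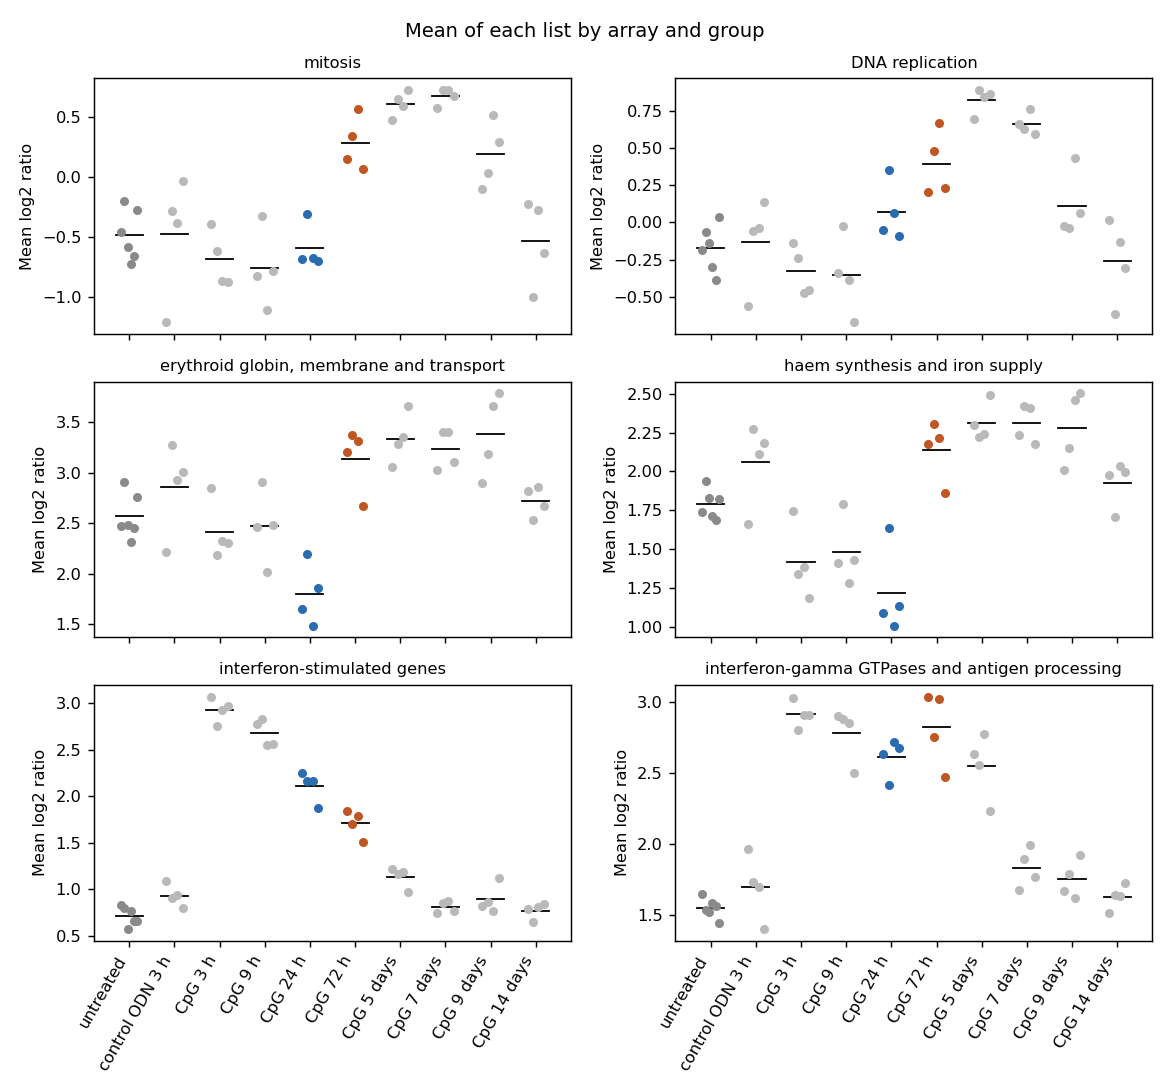
Mean log2 ratio of the members measured on all 42 arrays (vertical axis) for 6 lists in each group, with 1 point per array and the group mean as a line, CpG 24 h in blue, CpG 72 h in orange and untreated in dark grey. The mitotic mean runs from -0.59 at 24 h to 0.29 at 72 h and 0.68 at 7 days, the red cell list from 1.80 to 3.14 at 72 h, and the interferon-stimulated list from 2.93 at 3 h to 2.11 at 24 h and 1.71 at 72 h.

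The interferon-stimulated genes were still raised at both times and fell in part between them. Against untreated spleens 41 of 49 were higher at 24 h and 37 of 49 at 72 h, with 0 lower at either. Between the times 11 of 49 fell and 1 rose, with a median difference of -0.34. Slfn4, a Schlafen gene of myeloid cells, was at 3.08, 3.45, 3.48 and 2.15 at 24 h and 0.50, 0.67, 1.65 and 0.93 at 72 h, against -0.76 to 0.58 untreated. It fell by 2.11 ± 0.34 (adjusted p = 9.05e-05). Mx2 and Mx1, genes of the Mx family of GTPases, also fell. Mx2 came close to the untreated level, while Mx1 stayed above the untreated range on every 72 h array. Mx2 was at 2.71, 2.60, 3.23 and 2.48 and 0.90, 1.11, 1.67 and 1.07, with 0.75 to 1.44 untreated, and differed by -1.57 ± 0.20 (adjusted p = 4.94e-06). Mx1 was at 2.56, 2.17, 2.47 and 2.43 and 0.98, 1.11, 1.03 and 1.08, with 0.03 to 0.90 untreated, and differed by -1.36 ± 0.23. Against untreated spleens Mx2 and Mx1 were not called at 72 h (adjusted p = 0.689 and 0.0579).

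The Ifit genes, neighbours on chromosome 19 whose products bind viral RNA, parted. Ifit2 was at 2.64, 2.85, 2.55 and 1.46 at 24 h and 1.16, 0.85, 1.44 and 0.21 at 72 h and differed by -1.46 ± 0.23 (adjusted p = 7.94e-05). Ifit3 was at 4.24, 3.35, 3.32 and 3.44 and 2.79, 2.46, 1.58 and 2.27 and differed by -1.31 ± 0.30 (adjusted p = 0.00503). Ifit1 was at 2.75, 3.01, 2.67 and 2.33 and 2.99, 2.94, 3.20 and 2.72, groups that overlap, and differed by 0.27 ± 0.19 (adjusted p = 0.469). The difference between these genes was not tested. The upstream stretches of Ifit3 and Ifit1 are shown because both hold a pair of ISRE cores although the genes were called differently. They lie at chr19:34583358-34583431 and chr19:34640770-34640828 on the plus strand (RefSeq, GRCm38.p6), and capitals mark the ISRE core as it reads on that strand.
Ifit3: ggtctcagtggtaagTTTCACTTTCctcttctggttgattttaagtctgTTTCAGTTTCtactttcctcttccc
Ifit1: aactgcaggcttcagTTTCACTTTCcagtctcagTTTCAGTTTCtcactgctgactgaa
The ISRE core on either strand was found in 16 of 37 promoters of the list (43.2%), in 2 of the 8 promoters of members that fell (25.0%) and in 3.13% of the promoters of all tested genes.

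Isg15, a ubiquitin-like modifier, was at 2.58, 2.45, 2.37 and 2.48 at 24 h and 2.84, 2.88, 3.35 and 2.48 at 72 h and differed by 0.41 ± 0.26 (adjusted p = 0.43). Of other members, named after their values were seen, Bst2, which tethers budding virus, fell by 0.85, Ifi27l2a by 0.92 and Phf11d by 1.05, while the sensors Ifih1 and Ddx58 differed by -0.33 ± 0.20 and -0.20 ± 0.18 and were not called. Isg20, an exonuclease, named likewise, was the one member that rose, by 0.83 ± 0.25 (adjusted p = 0.0457). Phf11a, which lies outside the list, was at 3.94, 3.75, 3.72 and 3.13 and 2.46, 2.16, 2.81 and 2.20 and fell by 1.23 ± 0.19. The list mean was 2.25, 2.16, 2.16 and 1.88 at 24 h and 1.84, 1.71, 1.79 and 1.50 at 72 h, and the groups did not overlap. It was 2.93 at 3 h and 2.68 at 9 h.

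Most genes of the list named for interferon-gamma were raised at both times, and its members were not called between them. Which type of interferon raised them was not tested. Of 30 guanylate-binding proteins, p47 GTPases and antigen processing genes 0 were called by limma (4 higher and 2 lower at an unadjusted p under 0.05), with a median difference of 0.16. Over all genes 2720 of 15081 had such an unadjusted p. Differences in the list ran from -0.63 ± 0.23 for Tapbp to 1.00 ± 0.35 for Irgm2 (adjusted p = 0.102 and 0.0833, limma). Against untreated spleens 22 of 30 were higher at 24 h and 21 of 30 at 72 h. Gbp2, a guanylate-binding protein, was at 2.96, 3.34, 3.94 and 3.91 at 24 h and 4.10, 3.39, 5.03 and 3.38 at 72 h, against 1.08 to 1.47 untreated, and differed by 0.44 ± 0.29 (adjusted p = 0.449). The chemokine Cxcl10, which both interferon types raise, was at 3.73, 3.95, 4.06 and 2.72 and 4.20, 3.29, 4.20 and 2.61 and differed by -0.04 ± 0.32 (adjusted p = 0.97). The difference between both interferon lists was not tested.

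**Figure D5:**
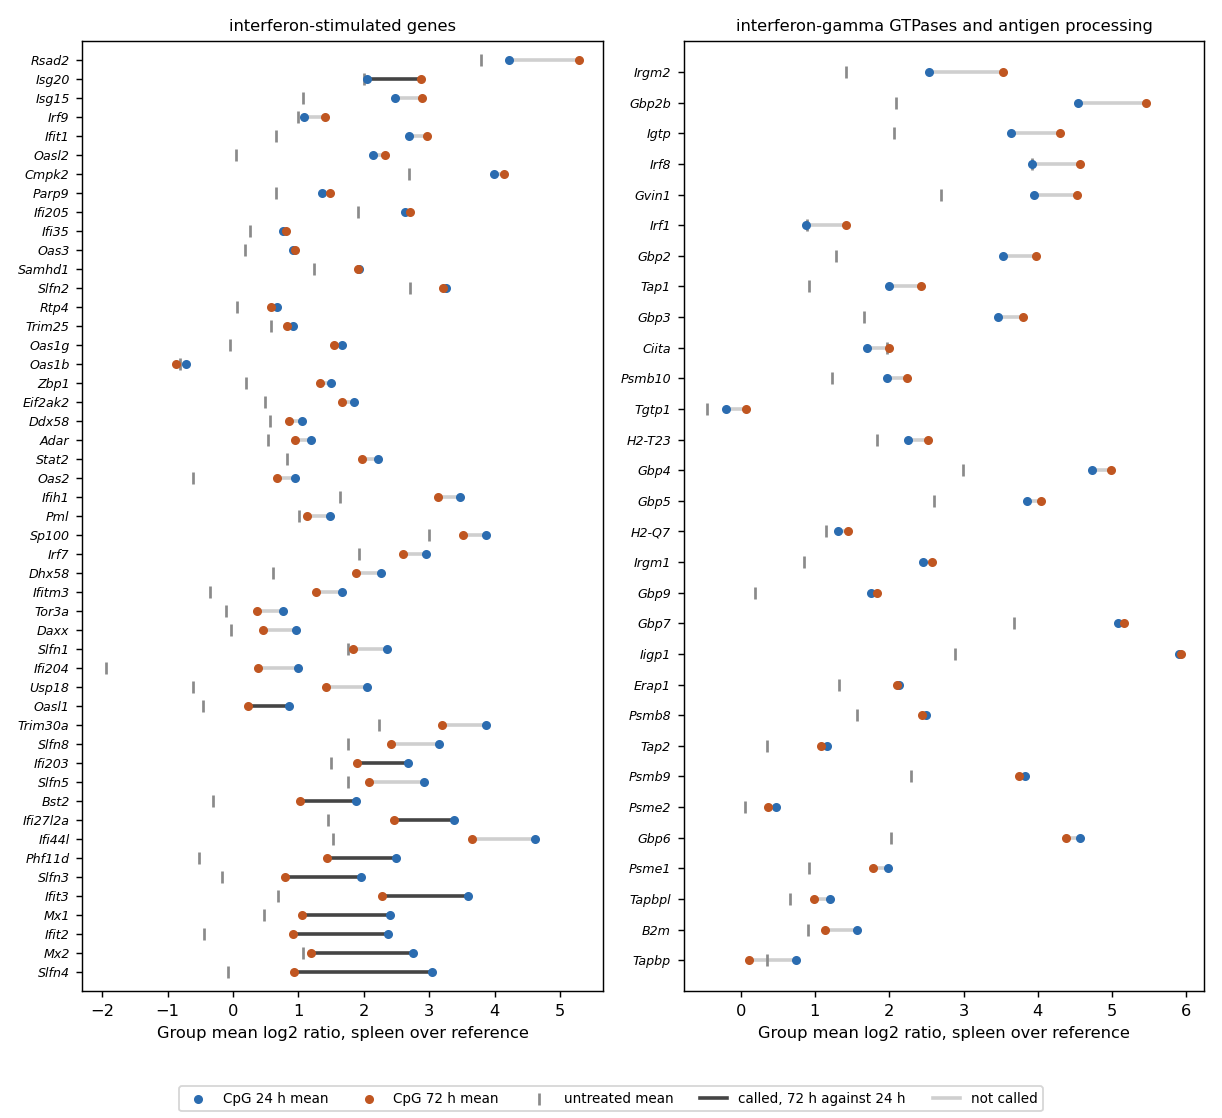
Mean log2 ratio of spleen over reference at 24 h (blue), at 72 h (orange) and in untreated spleens (grey tick) for the tested interferon-stimulated genes (left, 49) and interferon-gamma GTPase and antigen processing genes (right, 30), in order of the difference between 72 h and 24 h. Slfn4, Mx2, Ifit2, Mx1 and Ifit3 have the longest dark lines on the left, and no gene on the right is called.

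The other genes with the lowest differences were a mixed set, and most had been raised at 24 h. Uchl3, a ubiquitin hydrolase, was at 1.35, 2.18, 1.74 and 1.25 at 24 h and -0.74, -0.58, 0.34 and 0.24 at 72 h, against -0.45 to -0.14 untreated, and differed by -1.81 ± 0.23 (adjusted p = 4.94e-06). Afp, the fetal plasma protein alpha-fetoprotein, was at 1.19, 1.39, 0.99 and 0.87 and -0.64, -0.70, -0.05 and -0.88, against -2.33 to -0.80 untreated, and differed by -1.68 ± 0.32. At 9 h it had been at -1.03 ± 0.71 (SD, n = 4). Sct, the gut hormone secretin, was at 2.19, 2.34, 1.70 and 1.54 and -0.11, 0.09, 1.49 and -0.01 and differed by -1.58 ± 0.25, with 72 h array 3 apart from the other 3. Itgax, the CD11c integrin of dendritic cells, was at 3.90, 3.75, 4.33 and 3.50 and 2.38, 2.70, 2.75 and 2.63, against 2.12 to 3.13 untreated, and differed by -1.26 ± 0.23 (adjusted p = 0.000398). Selenow, selenoprotein W, fell by 1.24 and Cspg5, a membrane proteoglycan, by 1.40. Igf2, insulin-like growth factor 2, differed by -1.47 ± 0.31 and was below untreated at 72 h on 3 of 4 arrays. Kmo, an enzyme of tryptophan breakdown, was at 3.04, 2.77, 0.43 and 2.60 at 72 h, and its difference of -1.47 ± 0.36 came to -0.88 without array 3 (adjusted p = 0.0834). The call of Kmo was not kept in 2 of the 8 fits that left out 1 array (highest adjusted p = 0.0834).

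Among inflammatory mediators 4 of 26 chemokines (15.4%), 3 of 25 NF-kB targets (12%) and 1 of 23 cytokines (4.35%) were called, against 5.51% of all genes. Of the 23 cytokine genes Il6, a fever cytokine, was the one that fell, at -1.02 ± 0.31 (adjusted p = 0.0465). Among 26 chemokines 2 rose and 2 fell. Ccl12, a monocyte attractant, was at 2.97, 1.99, 2.45 and 2.04 at 24 h and 1.58, 1.01, 1.26 and 0.56 at 72 h, above the untreated -1.30 to -0.24 at both times, and differed by -1.26 ± 0.34. Cx3cl1, a membrane-bound attractant, differed by -1.09 ± 0.28, Ccl24, an eosinophil attractant, by 0.91 ± 0.19 and Cxcl5, a neutrophil attractant, by 0.89 ± 0.25. Among 25 NF-kB targets Gadd45b and Traf1 fell by 1.05 and 0.88, and Bcl2l1, a survival gene that red cell precursors also need, rose by 1.13 ± 0.31. Saa3, an acute phase gene of macrophages, fell by 1.08. Of 26 genes of protein folding and secretion in the endoplasmic reticulum 3 fell (11.5%, against 1.90% of all genes) and 0 rose. They were the disulfide isomerases Pdia6 and Pdia3 at -0.87 ± 0.23 and -0.60 ± 0.17 and the ubiquitin ligase Syvn1 at -0.70 ± 0.19. Several of these calls were lost with 1 array left out. Leaving out 1 array at a time, Il6, Ccl12 and Cx3cl1 lost their calls in 7, 4 and 3 of the 8 fits, with a highest adjusted p of 0.206, 0.0888 and 0.0802. With 1 array left out at a time, the calls of Cxcl5, Traf1 and Bcl2l1 were not kept in 5, 7 and 4 of the 8 fits, with a highest adjusted p of 0.139, 0.174 and 0.13. The calls of Saa3, Pdia6, Pdia3 and Syvn1 were not kept in 2, 3, 4 and 1 of the 8 fits that left out 1 array, with a highest adjusted p of 0.115, 0.07, 0.143 and 0.104.

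Among immune cell markers 8 of 24 dendritic cell genes were called (33.3%), 5 of 34 B cell genes (14.7%), 3 of 34 monocyte and macrophage genes (8.82%), 1 of 27 NK and cytotoxic genes (3.70%) and 0 of 30 T cell genes, against 5.51% of all genes. Of the 34 B cell markers 5 fell and 0 rose, with a median of -0.18. Blnk, an adaptor of the B cell receptor, was at 1.85, 2.25, 2.16 and 1.52 at 24 h and 0.93, 0.79, 1.33 and 1.03 at 72 h and differed by -0.93 ± 0.18 (adjusted p = 0.0011). Pax5, the factor that keeps B cell identity, differed by -0.82 ± 0.19 and Fcrl1 by -0.71 ± 0.21. Ighd, the IgD heavy chain, had no value on 72 h array 1 and was at 5.13, 0.04 and 4.94 on the others, so its difference of -2.70 ± 0.68 rests on array 3 and was -1.04 without it (adjusted p = 0.27). The call of Fcrl1 was not kept in 5 of the 8 fits that left out 1 array (highest adjusted p = 0.15). Cd79a, a chain of the receptor complex, differed by 0.08 ± 0.34 (adjusted p = 0.943). Its partner chain Cd79b, named after its value was seen, was among the members that fell. It differed by -0.66 ± 0.16 (adjusted p = 0.0097), without overlap between the groups. The mean of the B cell list was 3.45, 3.10, 3.24 and 2.89 at 24 h and 3.06, 3.07, 3.09 and 2.51 at 72 h.

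Of 24 dendritic cell markers 4 rose and 4 fell, with a median difference of -0.10. Itgax, described above, had the largest difference of the list, at -1.26. The genes named next were taken by the size of the difference and all rose, while the other members that fell are not named. Clec9a, a receptor for dead cells on cross-presenting dendritic cells, was at -0.07, -0.24, -0.42 and -0.16 at 24 h and 0.60, 0.92, 1.16 and 0.98 at 72 h, against 0.24 to 0.79 untreated, and rose by 1.14 ± 0.21 (adjusted p = 0.000477). Xcr1, the chemokine receptor of the same subset, was at 1.02, 0.10, -0.12 and 0.90 and 1.74, 1.10, 1.61 and 1.71 and rose by 1.07 ± 0.23. Cd24a, also made by red cell precursors, rose by 1.13 ± 0.24. Of 34 monocyte and macrophage markers 2 rose and 1 fell: Trf, transferrin, and Fcgr3, an IgG receptor, differed by 1.14 ± 0.30 and 0.83 ± 0.26, and Ms4a6d by -0.96 ± 0.24. Klra3, a killer cell receptor, was the one called of 27 NK and cytotoxic markers, at 0.76 ± 0.18, and Gzmb, granzyme B, was at 4.43, 5.50, 4.84 and 4.47 and 4.79, 4.88, 5.13 and 4.68, above the untreated 1.70 to 3.01 at both times. Of 30 T cell markers 0 were called (0 higher and 10 lower at an unadjusted p under 0.05, limma), with a median of -0.29, and Cd3e differed by -0.47 ± 0.19 (adjusted p = 0.149). Of 12 primary granule genes of neutrophil precursors 0 were called (4 higher and 0 lower at an unadjusted p under 0.05), and Mpo, myeloperoxidase, was at 2.98, 2.81, 2.64 and 1.65 at 24 h and 3.87, 4.10, 2.95 and 2.53 at 72 h, a difference of 0.84 ± 0.28 (adjusted p = 0.0696). Mcpt8, a basophil protease, rose by 1.14 ± 0.28 (adjusted p = 0.00972). With 1 array left out at a time, the calls of Trf, Fcgr3, Ms4a6d and Mcpt8 were not kept in 3, 5, 2 and 3 of the 8 fits, with a highest adjusted p of 0.0793, 0.174, 0.0566 and 0.0587.

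Of the remaining lists, glycolysis had 3 of 20 called (15%), complement 2 of 16 (12.5%) and macrophage effectors 3 of 27 (11.1%), against 5.51% of all genes. Of 27 SOCS, DUSP and immediate early genes 2 rose (7.41%, against 3.61% of all genes), Btg2 at 0.61 ± 0.18 and Klf4 at 0.47 ± 0.13. Of 27 macrophage effectors 2 rose and 1 fell, namely Gch1, Ncf4 of the phagocyte oxidase at 0.67 ± 0.20 and Saa3. Of 16 complement genes 2 fell, among them Cd55, a brake on complement, at -0.64 ± 0.18. Of 25 germinal centre and plasma cell genes 1 rose (4.00%, near the 3.61% of all genes), the elongation factor Ell2 at 0.94 ± 0.18. Jchain, which joins IgM and IgA, differed by 0.06 ± 0.19 (adjusted p = 0.92). Of 20 glycolysis genes Pfkm rose, at 0.66 ± 0.20, and Pfkfb3 and Slc16a3 fell, at -0.65 ± 0.20 and -0.64 ± 0.18. Single members fell among 33 stromal genes (Postn at -0.73 ± 0.18), 54 mitochondrial ribosomal proteins (Mrpl23 at -0.64 ± 0.15) and 15 adipocyte genes (Fabp4 at -1.09 ± 0.34). These make 3.03%, 1.85% and 6.67% of the lists, against 1.90% of all genes that fell. The calls of Btg2, Klf4, Ncf4 and Cd55 were not kept in 5, 2, 6 and 5 of the 8 fits that left out 1 array, with a highest adjusted p of 0.187, 0.0975, 0.121 and 0.12. Leaving out 1 array at a time, Pfkm, Pfkfb3, Slc16a3 and Fabp4 lost their calls in 4, 6, 6 and 8 of the 8 fits, with a highest adjusted p of 0.179, 0.165, 0.153 and 0.128.

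In all, 12 of the 40 lists had 0 calls by limma. The counts that follow stand beside 2720 of all 15081 genes with an unadjusted p under 0.05 (limma), in either direction. At an unadjusted p under 0.05, 7 of 26 late neutrophil genes were lower and 0 higher, and S100a8, a neutrophil calcium-binding protein, differed by -0.65 ± 0.29 (adjusted p = 0.213). By the same measure 8 of 59 ribosomal proteins were lower and 0 higher, 4 of 19 cholesterol synthesis genes lower and 0 higher, and 2 of 17 glucocorticoid-induced genes lower and 0 higher. Oxidative phosphorylation had 1 of 56 higher and 2 lower, the proteasome 1 of 31 higher and 1 lower, and endothelial cells 0 of 24 in either direction.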

How the data were processed

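Spleen RNA of 42 BALB/c mouse samples was hybridised to 2-colour arrays against a common reference. The values used are the deposited log2 ratios per feature. The base of the log and the direction (spleen in Cy5 over reference in Cy3) were taken from the values and the labels, and no source used here gives the spot filter or the normalization. Array medians lay between -0.014 and 0.019, and 173 to 1740 of 30601 features lacked a value per array. Precision is limited by 4 arrays per group. Of the features, 23485 carried 1 gene symbol and were averaged into 15271 genes, 179 carried several symbols and 6937 none. Symbols were updated through the gene identifier for 23367 features.

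All 10 groups were fitted together with limma 3.58.1 in R 4.3.3 (lmFit and eBayes), so that they share one estimate of the spread, and p-values were adjusted by Benjamini-Hochberg over all genes tested. A gene was tested with at least 3 arrays in each group and called at an adjusted p under 0.05. The scripts were tested on simulated data. Runs are stretches of the arrays' database numbers with gaps of at most 12, and say nothing of when RNA was made. Samples within a group are separate biological replicates by the submitters' account.

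The comparison, the 40 gene lists and the panel of genes were chosen with earlier results of these data known. The text names the 15 highest and 15 lowest called genes that were measured on all 8 arrays, did not overlap between groups and had all features one way, passing over clone and predicted names. Named too are at most 4 called genes per list, taken by the size of the difference, and every gene of the panel. Promoter windows (250 bases before the start to 50 after it) came from RefSeq (GRCm38.p6) for 11979 of the tested genes, and motifs were counted on both strands. The CHR core was searched as TTTGAA, the E2F motif as TTCCCGC or as TTGGCGC, and the CCAAT box by its own letters. The motif of GATA factors was searched as AGATAA and the ISRE core as a pair of GAAA with any 2 bases between them. The CCAAT box read on its other strand can overlap the second E2F motif. Alternatives changed the arrays fitted, the scaling, the filter, the spread, array weights, thresholds, the block and each array left out in turn.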

Additional observations from a re-analysis of the deposited data

Results flagged for a closer look

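In each group of 4 arrays, the highest or lowest array was marked where its gap to the next took up more of the group's range than the critical value of Dixon's test for 4 samples. This found 25 of 309 groups of list means and named genes, and chance alone marks about 1 in 20.

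CpG 24 h array 1 was the highest of its group for Ifit3 (4.24, others 3.32 to 3.444). CpG 24 h array 2 was the highest of its group for the mean of mitosis (-0.3054, others -0.7009 to -0.6685), Abcb10 (0.879, others 0.168 to 0.252), Ccna2 (0.232, others -0.697 to -0.587) and Cd24a (3.693, others 2.818 to 2.926). The same held for Gch1 (1.123, others -0.0125 to 0.102), Neil3 (-0.771, others -1.603 to -1.546) and Ubac1 (1.566, others 0.0915 to 0.183). CpG 24 h array 4 was the lowest of its group for the mean of proteasome core and cap (-0.05447, others 0.2445 to 0.2776), Fcrl1 (3.068, others 3.664 to 3.705) and Pfkfb3 (0.974, others 1.808 to 1.883). CpG 72 h array 3 was the lowest of its group for Kmo (0.427, others 2.604 to 3.044) and Syvn1 (-0.918, others -0.369 to -0.29). CpG 72 h array 3 was the highest of its group for Rrm1 (2.663, others 1.157 to 1.2) and Sct (1.485, others -0.111 to 0.089). CpG 72 h array 4 was the lowest of its group for the mean of B cell markers (2.51, others 3.065 to 3.093), the mean of megakaryocytes and platelets (1.75, others 2.227 to 2.286), the mean of monocyte and macrophage markers (2.53, others 3.038 to 3.131) and the mean of secondary and late neutrophil genes (1.794, others 2.611 to 2.772). The same held for Ell2 (0.939, others 1.494 to 1.572), Fcrl1 (2.268, others 2.981 to 3.036), Fhdc1 (1.541, others 2.191 to 2.259) and Fn3k (2.073, others 3.926 to 4.009). The same held for Klf1 (4.861, others 6.687 to 6.853) and Slc25a37 (2.658, others 3.445 to 3.553).

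Values are log2 ratios of spleen over reference. Array 4 of 72 h also had the narrowest spread of the 8 arrays (SD of its features 0.983, against 1.06 to 1.20 on the others). The part of these arrays in the differences was measured by leaving each out, and its cause was not tested.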

How the results depend on the processing

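No result reversed under any alternative. The counts of called genes, 831 in all, 545 higher and 286 lower, kept within 1.5 times under centring (853), quantile normalization (969), scaling to 1 median absolute deviation (1045), genes on all 42 arrays (807), genes with at least 1 value per group (830), trended and robust spread (810), runs as a random block (688), without arrays over 1000 missing features (662), the acinar mean as a covariate (852) and single features (1019). Fitting only the 8 arrays gave 303 calls, 253 higher and 50 lower, with 25 mitotic, 14 red cell membrane and transport and 11 haem genes higher and 10 interferon-stimulated genes lower. Array weights gave 2000, 1072 higher and 928 lower, with 18 interferon-stimulated genes lower. A threshold of 0.01 left 379, 292 higher and 87 lower, with 19 mitotic genes, and a log2 difference of at least 1 left 292, 243 higher and 49 lower, with 7 interferon-stimulated genes. Leaving out 1 array gave 467 to 1058 calls, 334 to 687 higher and 125 to 437 lower, with 21 to 36 mitotic genes, 14 to 18 red cell membrane and transport genes, 12 to 14 haem genes and 11 to 14 interferon-stimulated genes. The fewest lower calls came without 24 h array 3 (125) and the most without 24 h array 4 (437). With the replicate number as a block on the 8 arrays (replicate block) 526 genes were called and 132 were lower. Arrays of the same number correlated at 0.283, 0.0729, 0.414 and 0.332 after group means were removed, and 24 h array 2 correlated best with 72 h array 3 (0.188), so they were taken to share only a number. Except where fewer arrays or a stricter threshold set the count, the cause was not tested. The median standard error of 0.19 limits what 4 arrays a group can show.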

Other observations

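Some genes outside the lists that are tied to red cells also rose. They were chosen after their values were seen, so their direction supports nothing. Art4, Icam4 and Ackr1, which carry blood groups in humans, rose by 1.96 ± 0.39, 1.44 ± 0.22 and 1.06 ± 0.23 (adjusted p = 0.00103, 7.53e-05 and 0.00331). Prdx2, a peroxiredoxin abundant in red cells, rose by 1.35 ± 0.25, Eif2ak1, the haem-regulated kinase of translation, by 1.10 ± 0.24, and Ncoa4, which delivers ferritin for breakdown, by 1.06 ± 0.22. Gclc and Gclm, the chains of the enzyme that starts glutathione synthesis, rose by 1.24 ± 0.26 and 1.33 ± 0.28, and the glutathione peroxidase Gpx1 by 1.38 ± 0.32, while the other genes of glutathione metabolism were not counted. Among genes that fell were Dbp and Per3 of the circadian clock, at -0.95 ± 0.20 and -0.93 ± 0.26 (adjusted p = 0.0018 and 0.0241), and the labels used here give no hour of the day at which spleens were taken. Hes1 and Notch1 of the Notch pathway fell by 0.98 and 0.90.

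Of 6850 tested features without a gene symbol, 135 were higher and 111 lower at 72 h, in a fit of all 29916 features that called 1241.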
